A study of Homo sapiens with 10 samples.

Results

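Glycolysis and hypoxia-response genes were followed in HAP1, a human line with a near-haploid genome that goes back to the leukaemia line KBM-7. The set holds 38 genes, which were taken by name from both deposited count tables and make up 38 of the 59453 genes listed. The untreated groups were wild type (WT, clones 2 and 11), cells lacking the adenine DNA glycosylase MUTYH (MUTYH KO, clones 7 and 8), cells lacking the 8-oxoguanine DNA glycosylase OGG1 (OGG1 KO, clones 1 and 22) and cells lacking both (DKO, clones 4 and 14), with 1 RNA-seq library per clone. The same WT clones were also sequenced after 24 hours with 100 µM H2O2, which gave 10 libraries in all. The knockouts were small CRISPR-Cas9 insertions or deletions. Both DKO clones came from a single OGG1 KO clone, whose product number ends like the label of clone 22. The DKO and OGG1 KO groups are thus not independent. Every culture was kept at atmospheric oxygen, so no library was given a hypoxic treatment, and the oxygen reaching the cells is not reported. The comparisons ask how these transcripts depend on each glycosylase and on an oxidant.

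Glycolysis splits glucose into pyruvate, which is turned into lactate by lactate dehydrogenase or enters mitochondria through pyruvate dehydrogenase. Hypoxia-inducible factor (HIF) raises the transcription of most of these enzymes when oxygen is low. Its alpha subunit is hydroxylated by the EGLN enzymes and destroyed when oxygen is present, so its activity is set mainly at the level of protein, which RNA-seq does not measure. When stable, it pairs with ARNT and binds hypoxia response elements, whose core reads ACGTG or GCGTG.

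The short sequences here show such cores upstream of 4 members described later: the lactate exporter SLC16A3, the pyruvate dehydrogenase kinase PDK1, the mitophagy receptor BNIP3 and the collagen prolyl hydroxylase subunit P4HA1. They come from RefSeq promoters on GRCh38.p14, read 5′ to 3′ on the strand of the gene, and capitals mark ACGTG or its reverse complement CACGT.
SLC16A3 (chr17:82228967-82228996, + strand, 75 to 46 bases before the start): ggcggtgACGTGcgcgggggACGTGccgcg
PDK1 (chr2:172556060-172556089, + strand, 30 to 1 bases before the start): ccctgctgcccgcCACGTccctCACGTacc
BNIP3 (chr10:131982047-131982076, − strand, 153 to 124 bases before the start): ccgccccgcgcacgcgccgCACGTGccaca
P4HA1 (chr10:73096943-73096972, − strand, 106 to 77 bases before the start): ggcgctggtgtgatcgagctCACGTagcga
In BNIP3 the capitals are the palindrome that holds the core on both strands. In GENCODE v44 the SLC16A3 stretch lies in an intron of a longer transcript, those of PDK1 and P4HA1 in an exon of the same gene, and that of BNIP3 outside the gene. Promoters (250 bases before and 50 after the start) were listed for 34 members. On either strand, ACGTG stood in 24 of their 64 promoters (37.5%), against 21.4% of all 35116 promoters, and GCGTG in 27 (42.2%), against 36.5%. At least 1 of the cores was found in a listed promoter of 31 members. A match of letters is not a bound site. EGLN3, P4HA2 and PGAM1 held neither core in their listed window.

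Total counts per library ranged from 22225091 to 22674964, so a level of 1 CPM (the TMM-normalized count as parts per 1e6) rested on about 22.2 counts in the smallest library. Together the 38 genes took 1.09% to 1.30% of the counts. The knockouts did not show in the targeted transcripts of every clone, since OGG1 had 275 and 295 counts in WT, 27 and 254 in OGG1 KO clones 1 and 22, and 215 and 223 in DKO. MUTYH had 105 and 89 counts in WT, 101 and 83 in MUTYH KO and 106 and 50 in DKO. RNA counts do not measure protein, and the paper verified the knockouts at the protein level, with targeted mass spectrometry, in every clone. Of 9 haematopoietic markers 8 stayed below 1 CPM in every library, whereas the summed level of 4 epithelial markers ranged from 36.3 to 101 CPM and that of 4 mesenchymal markers from 218 to 517 CPM. In bulk RNA, fewer cells that express a gene and less RNA per cell cannot be told apart.

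The untreated libraries did not separate by genotype on the first principal component of the 17844 other tested genes (31.1% of the variance). Later components were not examined. On the first, WT clone 2, MUTYH KO clone 8, OGG1 KO clone 22 and DKO clone 14 had scores of 22.5 to 44.3, and their sister clones scores of -44.0 to -16.0. No label names this division. The share of counts from mitochondrial genes was 3.75% to 5.02% on the positive side and 5.14% to 7.46% on the negative side.

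Most of the enzymes were abundant and even. Levels between genes are compared per kb of the canonical transcript. GAPDH, which forms the first high-energy intermediate of lower glycolysis, was highest with 1355 to 1846 CPM per kb over the 8 untreated libraries. It was followed by PKM (pyruvate kinase, 1018 to 1169) and ENO1 (enolase, 923 to 1079), whose ranges overlapped each other but not that of GAPDH. TPI1 (triose phosphate isomerase) reached 539 to 658, LDHA (lactate dehydrogenase A) 401 to 514 and PGAM1 (phosphoglycerate mutase) 261 to 332 CPM per kb. At the other end, EPAS1, which encodes the HIF-2 alpha subunit, had 0.0806 to 0.385 CPM per kb, and NDRG1, a stress- and hypoxia-induced gene, had 0.382 to 1.67. Between libraries, the highest level was under 1.5 times the lowest for 19 of the 37 tested members, and over 2 times for 12. The median SD of log2 CPM over the untreated libraries was 0.12 for both upper and lower glycolysis enzymes, 0.37 for the other hypoxia-induced genes and 0.28 for all tested genes.

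**Figure D1:**
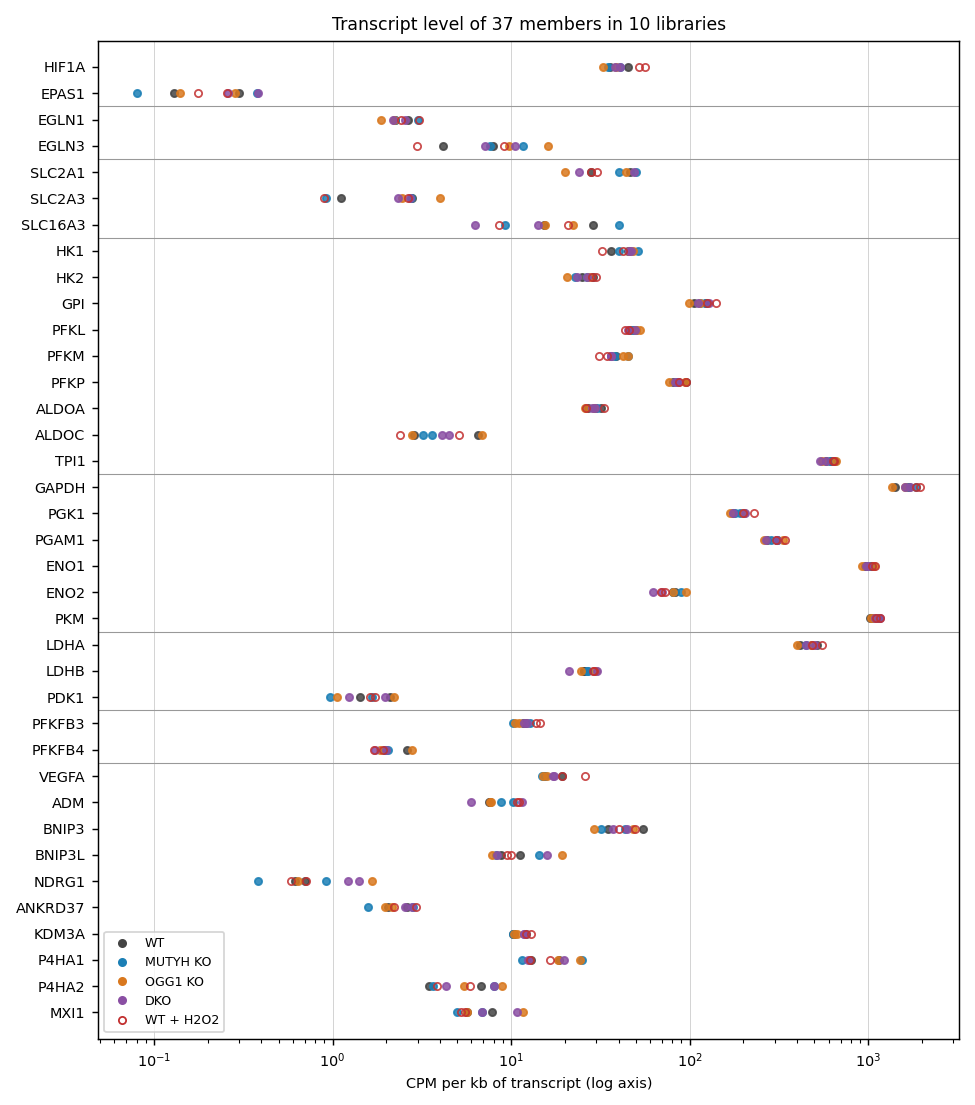
Level of 37 members in each of the 10 libraries, as CPM per kb of the canonical transcript on a log axis; filled points are untreated libraries by genotype, open points H2O2-treated WT, and grey lines separate the 8 role groups. Points of GAPDH, PKM and ENO1 lie furthest right and close together, and those of EPAS1 and NDRG1 lie furthest left and spread widely.

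Several members are alternative forms of 1 protein, and their shares per transcript length were taken among members only. In the untreated libraries LDHA made up 94.1% to 95.5% of LDHA and LDHB, ALDOA 80.8% to 90.4% of ALDOA and ALDOC, and SLC2A1 (GLUT1) 89.0% to 97.8% of SLC2A1 and SLC2A3. Both ALDOA and LDHB share exon bases with another gene, as given below, so their shares are less certain. ENO1 made up 90.6% to 94.1% of ENO1 and ENO2, without the muscle enolase ENO3, which is no member and had 12.7 to 19.6 CPM. HIF1A made up 99.1% to 99.8% of HIF1A and EPAS1. The 2 hexokinases were more even, with 59.1% to 70.1% for HK1. Among the phosphofructokinases, PFKP had 44.5% to 53.5%, PFKL 26.0% to 29.5% and PFKM 20.4% to 26.3%.

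CA9, a carbonic anhydrase widely used as a marker of HIF activity, was not detectable at this depth. It had 1 count each in MUTYH KO clone 7 and OGG1 KO clone 1 and 0 in the other 8 libraries, where a count of 0 allows up to 0.135 CPM (3 counts of the smallest library, counting error only). It did not pass the filter on low counts, so all fold changes below cover 37 members.

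Some levels carry limits of counting. GENCODE places 42.8% of the exon bases of ALDOA, 55.8% of EGLN1 and 33.4% of LDHB in a second gene on the same strand, and 40.3% of those of ANKRD37 opposite UFSP2. Reads in the shared bases of ALDOA, EGLN1 and LDHB could have been split or left out under any strand setting. For ANKRD37 this depends on the strand setting, which is not stated. Processed pseudogenes, listed under the member's symbol followed by P and a number, held at most 5.73% of the counts of their parent, in BNIP3, and at most 2.81% in TPI1.

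Few members were called between the genotypes, as were few of all genes, so these counts are no result about the members. A gene was called when its unadjusted edgeR quasi-likelihood P was at most 0.05 and its log2 fold change beyond 1 in either direction, the criterion of the study. The knockouts share the WT libraries, so the comparisons are not independent. In MUTYH KO 0 of 37 members were called, against 1.19% of all 17881 genes tested. There 0 members had an unadjusted P of at most 0.05, beside 1.72% of all genes. In OGG1 KO 1 member, EGLN3, was called (background 1.67%), and in DKO 0 were called (background 1.77%). In either, 0 further members had an unadjusted P of at most 0.05, beside 2.74% of all genes in OGG1 KO and 2.94% in DKO. Between DKO and OGG1 KO 0 members were called (background 1.44%), and 1, ENO2, had an unadjusted P of at most 0.05, beside 2.62% of all genes. No member passed Benjamini-Hochberg adjustment over all genes in these edgeR comparisons, where the smallest adjusted p was 0.999. With the 2 library sides as a block, which were defined from these libraries, 1 member in MUTYH KO had an unadjusted P of at most 0.05 (PDK1, -0.46 on the log2 scale), as did 4.46% of all genes. In OGG1 KO 4 members did (EGLN3, P4HA2 at 0.53, P4HA1 at 0.44 and PFKM, beside 7.18% of all genes). In DKO 3 did against WT (ENO2, NDRG1 and MXI1 at 0.38, beside 7.32%) and 3 against OGG1 KO (ENO2, PFKM and P4HA1 at -0.43, beside 7.58%). EGLN3 in OGG1 KO was still the 1 call, and the smallest edgeR adjusted p of a member was 0.596.

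The members' median log2 fold change was 0.04 in MUTYH KO, 0.02 in OGG1 KO and 0.02 in DKO against WT, beside 0.01, 0.01 and 0.00 for all genes tested. The 10 tested members grouped as other hypoxia-induced genes had medians of 0.05, 0.20 and 0.22 in that order. Of these 10, 5, 7 and 9 were higher than in WT and 0 were called, and the group was not tested as a set. The share of all genes higher than in WT was not counted. Beside them, the 29 tested genes of a further hypoxia-induced list, described below, had medians of -0.02, -0.01 and -0.003. In each knockout 14 of those 29 were higher and 15 lower. Between 33 and 36 of the 37 members lay within 0.5 of 0 on the log2 scale in the 4 genotype comparisons, beside 84.7% to 87.0% of all genes. Whether the loss of MUTYH differed with and without OGG1 was tested as an interaction, which called 0 members against 2% of all genes. It left 0 members at an unadjusted P of at most 0.05, beside 2.62% of all genes.

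**Figure D2:**
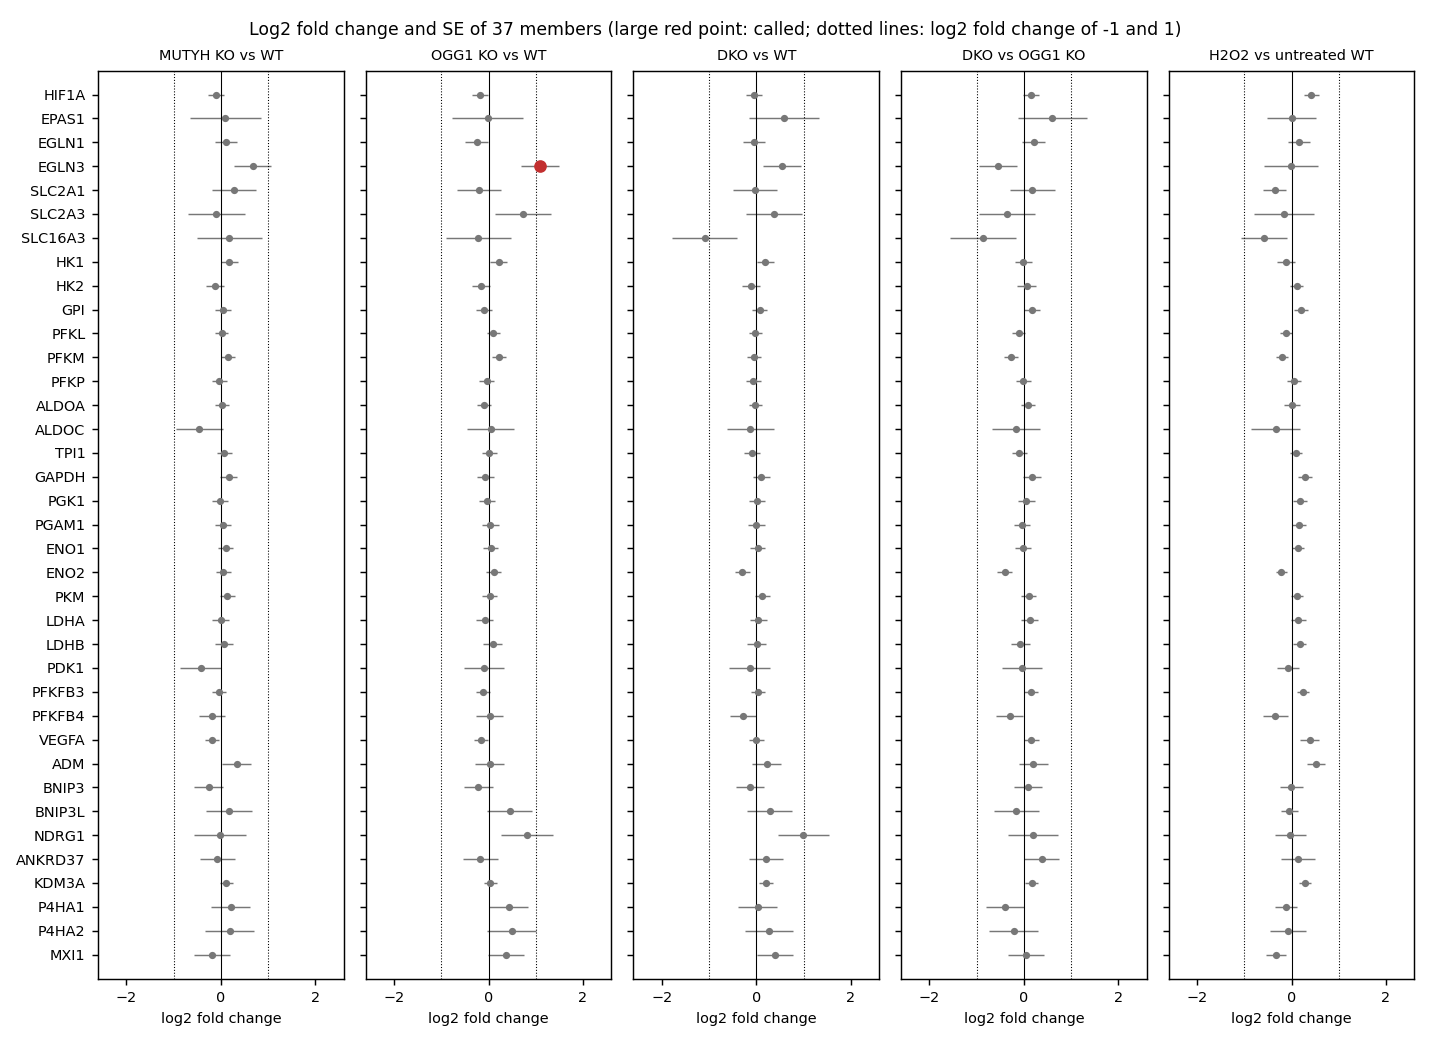
Log2 fold change of 37 members (points) with its standard error (bars) in 5 comparisons, from the edgeR fit; dotted lines mark -1 and 1, and a large red point marks a called gene. EGLN3 in OGG1 KO is the only called point, and most glycolysis enzymes lie close to 0, with ALDOC (-0.46 in MUTYH KO) and ENO2 (-0.41 for DKO against OGG1 KO) further off.

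EGLN3 (PHD3), a prolyl hydroxylase that marks HIF alpha for destruction and is itself HIF-induced, lies on chromosome 14, 33924227 to 34462774 (GRCh38). It had 11.3 and 21.5 CPM in WT clones 2 and 11 and 26.3 and 43.6 CPM in OGG1 KO clones 1 and 22. In MUTYH KO clones 7 and 8 it was at 31.6 and 20.6 CPM, and the DKO libraries (clones 4, 14) had 19.3 and 28.3 CPM. Both OGG1 KO libraries were above both WT libraries, while the MUTYH KO and DKO libraries overlapped those of WT. OGG1 KO differed from WT by 1.09 ± 0.40 on the log2 scale (SE; unadjusted P = 0.0287, adjusted p = 0.999 in edgeR). It was 0.67 ± 0.40 in MUTYH KO and 0.54 ± 0.40 in DKO. The value in OGG1 KO fell below the threshold without WT clone 2 (0.69) and without OGG1 KO clone 22 (also 0.69). Without WT clone 11, EGLN3 was instead past the threshold in all 3 knockouts, at 1.21, 1.64 and 1.08 in MUTYH KO, OGG1 KO and DKO. The epithelial keratin KRT8 and the progenitor marker CD34 were also called higher in OGG1 KO. KRT8 had 37.4 and 45.3 CPM against 8.47 and 17.5 in WT. CD34 was low, with 0.407 and 1.02 CPM in OGG1 KO clones 1 and 22 against 0.133 and 0.177 in WT. The part of KRT8 and CD34 in the EGLN3 difference was not tested. In DKO, KRT8 and CD34 were called higher as well, with the epithelial marker EPCAM. The DKO clones derive from an OGG1 KO clone, so this is no independent repeat.

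EGLN1 (PHD2), the main oxygen sensor of the family, was at 8.13 to 13.1 CPM in the untreated libraries, and its log2 fold changes against WT ran from -0.25 in OGG1 KO to 0.11 in MUTYH KO. Neither HIF alpha subunit was called. HIF1A had 178 and 142 CPM in WT, 137 and 161 in MUTYH KO, 128 and 153 in OGG1 KO and 151 and 160 in DKO, so every knockout range overlapped that of WT. EPAS1 had 1.55 and 0.665 CPM in WT, 0.416 and 1.95 in MUTYH KO, 0.723 and 1.47 in OGG1 KO and 1.34 and 1.98 in DKO. At such levels the SE of its log2 fold change against WT was 0.74 to 0.75.

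ENO2, the neuronal form of enolase, had the smallest P of any member in DKO. It had 190 and 184 CPM in WT, 205 and 184 in MUTYH KO, 219 and 185 in OGG1 KO, but 161 (clone 4) and 143 (clone 14) in DKO. Both DKO libraries were lower than each of the other 6 untreated libraries. The log2 fold change was -0.41 ± 0.16 (SE, unadjusted P of 0.0352, edgeR adjusted p of 1) against OGG1 KO and -0.30 ± 0.16 (unadjusted P of 0.0995, edgeR adjusted p of 1) against WT. With the library sides as a block the unadjusted P was 0.00433 and 0.0176, and the edgeR adjusted p 0.634 and 0.596. ENO1 differed by -0.02 and 0.03 in the same comparisons.

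NDRG1 showed the largest positive log2 fold change of a member in DKO, 0.99 ± 0.54 (SE, unadjusted P of 0.109, edgeR adjusted p of 1). With the library sides as a block it was 1.00 ± 0.38 (SE; unadjusted P = 0.0320, adjusted p = 0.633 in edgeR). Its levels were 2.13 and 1.86 CPM in WT, 1.15 and 2.79 in MUTYH KO, 1.94 and 5.06 in OGG1 KO, and 3.67 and 4.28 in DKO. The DKO libraries did not overlap those of WT, but both groups rest on fewer than 100 counts per library. In OGG1 KO the log2 fold change of 0.81 turned to -0.03 without clone 22 and was 1.33, past the threshold, without clone 1.

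SLC16A3 (MCT4), which exports lactate from glycolytic cells, had the largest negative value in DKO, at -1.09 ± 0.70 (SE, unadjusted P of 0.158, edgeR adjusted p of 1). It was also among the least even members, with 74.7 and 39.6 CPM in WT clones 2 and 11, 105 and 24.0 in MUTYH KO clones 7 and 8, 57.4 and 40.3 in OGG1 KO clones 1 and 22, and, for DKO, 36.8 in clone 4 and 16.4 in clone 14. Both DKO libraries were below both WT libraries, and the MUTYH KO libraries lay on either side of them. The value was -1.81 without DKO clone 4, -1.48 without WT clone 11, -0.64 without DKO clone 14 and -0.57 without WT clone 2. Of the glucose importers, SLC2A1 had log2 fold changes of -0.20 to 0.28 against WT and SLC2A3 (GLUT3) of -0.10 to 0.73, each with an SE of 0.47 to 0.60.

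The 9 upper glycolysis enzymes held 0 calls in each comparison. Apart from ALDOC, their log2 fold changes against WT lay between -0.16 and 0.23. The low-level aldolase ALDOC (4.47 to 11.1 CPM) reached -0.46 in MUTYH KO. PFKM, the muscle form of phosphofructokinase, was next to EGLN3 by P in OGG1 KO. It had 112 and 119 CPM in WT, 140 and 118 in MUTYH KO, 140 and 131 in OGG1 KO and 112 and 112 in DKO. Its libraries did not overlap between OGG1 KO and WT, with a log2 fold change of 0.23 ± 0.15 (SE, unadjusted P of 0.163, edgeR adjusted p of 0.999). With the library sides as a block the unadjusted P was 0.0417 and the edgeR adjusted p 0.680. Summed over the 17 enzymes from hexokinase to lactate dehydrogenase, the level was 10923 ± 587 CPM in WT, 11634 ± 174 in MUTYH KO, 10884 ± 953 in OGG1 KO and 11282 ± 304 in DKO (SD, n = 2).

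VEGFA (the angiogenic growth factor) and ADM (the vasodilator adrenomedullin) followed EGLN3 by P in MUTYH KO, at -0.19 ± 0.15 and 0.33 ± 0.31 on the log2 scale (SE, edgeR adjusted p of 1 for both). VEGFA had 69.5 and 55.3 CPM in WT and 53.9 and 55.8 in MUTYH KO, which overlapped. ADM had 11.2 and 11.3 CPM in WT and 13.1 and 15.3 in MUTYH KO, which did not. In DKO it had 17.2 and 8.95 CPM, on either side of WT.

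**Figure D3:**
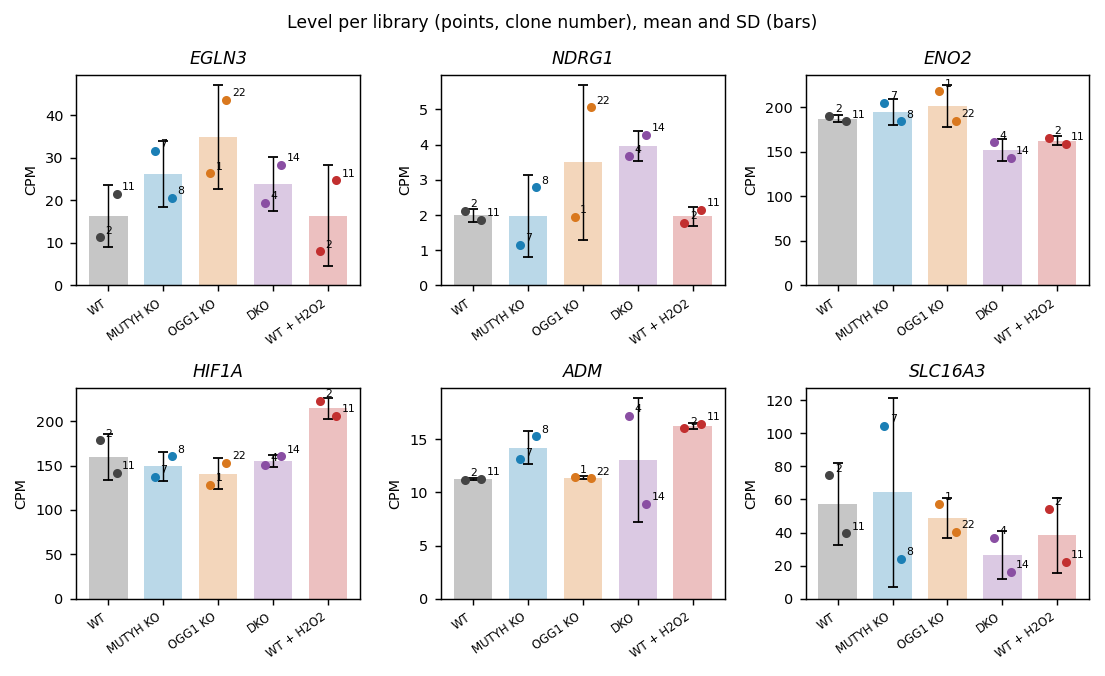
CPM of EGLN3, NDRG1, ENO2, HIF1A, ADM and SLC16A3 in every library (points, labelled with the clone number) with the mean (bar) and SD (line) of each group of 2. Both OGG1 KO points of EGLN3 lie above WT, both DKO points of ENO2 lie below all other untreated points, and both H2O2 points of HIF1A and ADM lie above WT.

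Some members separated by library side rather than by genotype. For 13 of 37 members (35.1%) all 4 libraries on one side of the first principal component were above all 4 on the other, beside 29.2% of all genes tested, so the share was near the background and is no result about the members. The sides were set from the same libraries and no test was made. Of the 5 members with the widest range over the untreated libraries, SLC16A3, SLC2A3, NDRG1 and EGLN3 overlapped between the sides, and EPAS1 did not (1.47 to 1.98 against 0.416 to 1.34 CPM). SLC2A1 had 67.7 to 136 CPM on the positive side and 150 to 169 on the negative side, and HK2 (the inducible hexokinase) 116 to 141 and 149 to 161. The collagen prolyl hydroxylase subunits P4HA1 and P4HA2 were likewise lower on the positive side, with 31.4 to 50.04 against 51.1 to 68.7 CPM and 15.7 to 24.9 against 31.0 to 40.5 CPM.

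The other 9 of the 13 members were higher on the positive side. They include the mitophagy receptors BNIP3 (66.6 to 84.5 against 44.9 to 57.7 CPM) and BNIP3L (38.5 to 66.6 against 27.0 to 30.1 CPM), and PDK1, which restrains pyruvate entry into mitochondria (23.3 to 31.3 against 13.6 to 19.98 CPM). MXI1, a MYC antagonist, had 23.9 to 40.3 against 17.2 to 23.9 CPM, with the nearest libraries almost equal. LDHA, GPI, PGAM1, HIF1A and EPAS1 completed them. Of the genes whose ACGTG-bearing promoters are shown above, P4HA1 was lower on the positive side, BNIP3 and PDK1 were higher on it, and SLC16A3 overlapped (16.4 to 74.7 against 36.8 to 105 CPM). The mitochondrial share given above separated the same libraries, and its part in these differences was not tested.

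**Figure D4:**
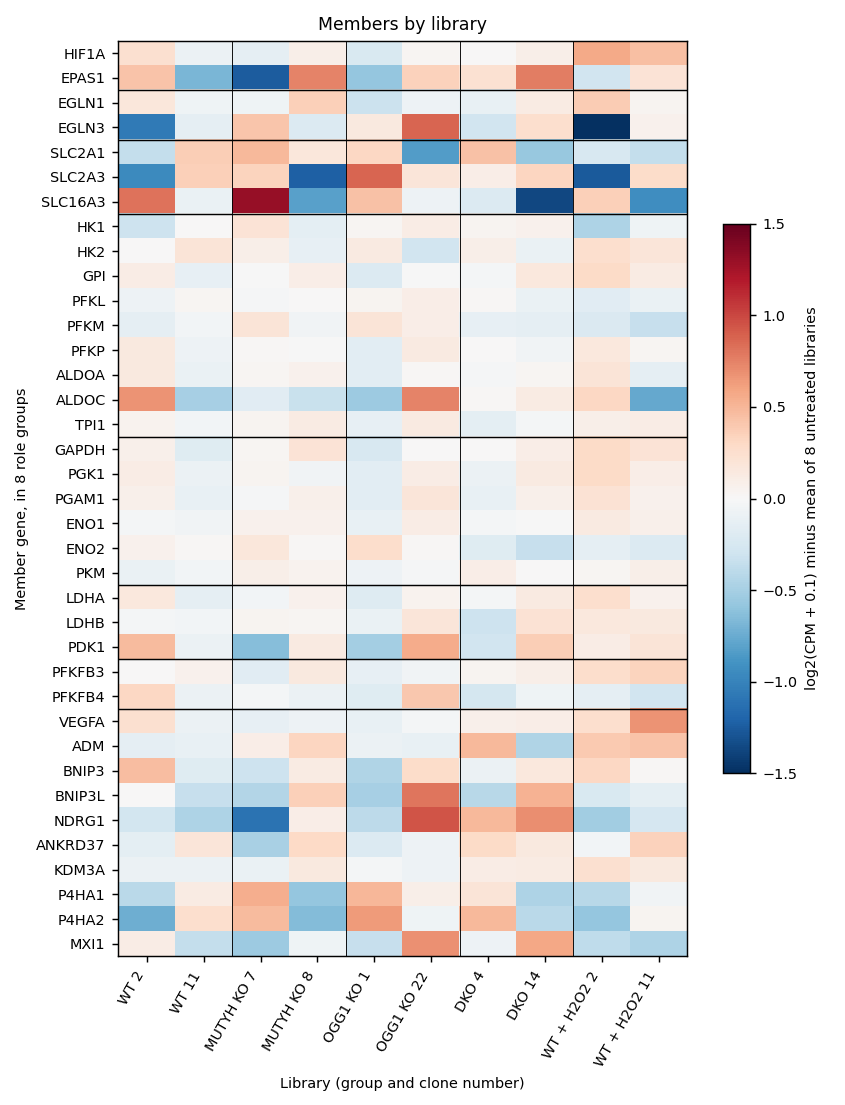
Colour gives log2(CPM + 0.1) of each member minus its mean over the 8 untreated libraries, limited to ±1.5, with members in rows by role and libraries in columns by group and clone. The glycolysis rows are pale, while transporters, P4HA1, P4HA2, BNIP3L and PDK1 change colour between clones of the same genotype.

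**Figure D5:**
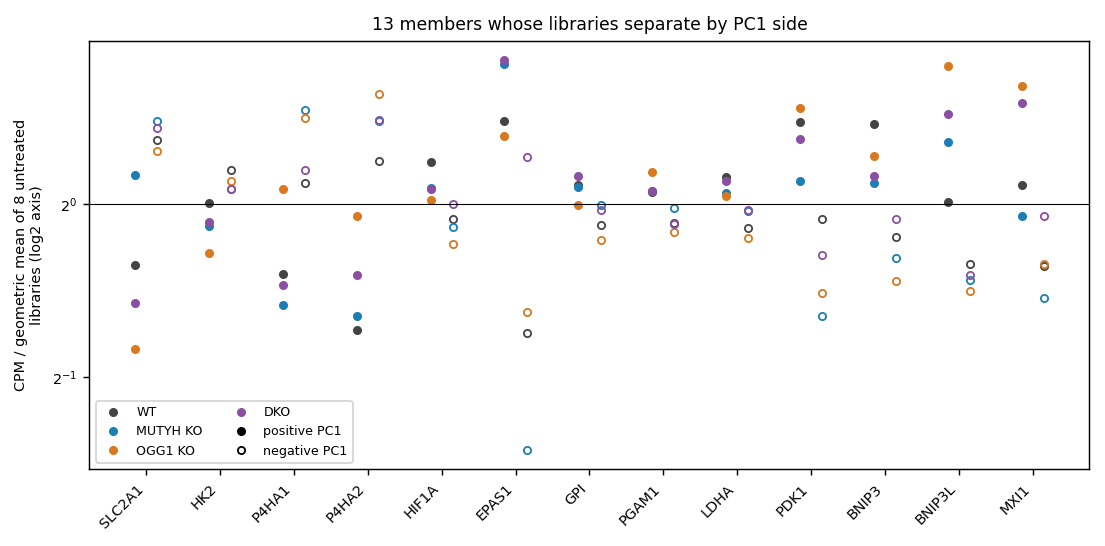
CPM of 13 members relative to the geometric mean of the 8 untreated libraries, on a log2 axis; colours are genotypes, filled points the 4 libraries with a positive score on the first principal component and open points the 4 with a negative one. Filled points lie below open ones for SLC2A1, HK2, P4HA1 and P4HA2 and above them for the other 9.

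Few members passed a test after H2O2. Without regard to clone 0 of 37 members were called, against 1.75% of 16997 genes tested, and 2 members, HIF1A and ADM, had an unadjusted P of at most 0.05, as did 7.63% of all genes. The members' median log2 fold change was 0.01, beside 0.00 for all genes. The treated libraries came from the clones of the untreated ones, and with clone as a block 0 members were called (background 2.78%), while 1 member, SLC16A3, had an edgeR adjusted p of at most 0.05 (background 2.57%). In that blocked edgeR fit 6 of 37 members had an unadjusted P of at most 0.05, beside 20.1% of all genes. The share of mitochondrial counts was 2.995% and 3.38% in the treated and 5.02% and 5.14% in the untreated WT libraries, and its part in the differences below was not tested.

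SLC16A3 lies on chromosome 17, 82217934 to 82261129 (GRCh38). It fell from 74.7 to 54.4 CPM in clone 2 and from 39.6 to 22.2 CPM in clone 11. The decrease was seen in both clones, although the treated and untreated groups overlapped. With clone as a block it was -0.64 ± 0.14 on the log2 scale (SE; adjusted p = 0.0296 in edgeR). Without the block it was -0.58 ± 0.48 (edgeR adjusted p of 0.763). Other settings of the blocked fit gave an adjusted p of 0.0122 to 0.0421 in edgeR, but 0.0512 in the DESeq2 Wald test. The other 2 transporters did not pass: SLC2A1 went from 94.7 to 102 CPM in clone 2 and from 156 to 94.8 CPM in clone 11, in opposite directions, and SLC2A3 from 4.26 to 3.41 and from 10.7 to 10.1 CPM.

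HIF1A (chromosome 14, 61695513 to 61748259) had 178 and 142 CPM in untreated and 223 and 206 CPM in treated WT clones 2 and 11. Both treated libraries were above both untreated ones and above every knockout library. The log2 fold change was 0.42 ± 0.16 (SE, unadjusted P of 0.0407, edgeR adjusted p of 0.638), and with clone as a block 0.42 ± 0.13 (edgeR adjusted p of 0.0940). EPAS1 had 0.909 and 1.32 CPM after treatment, within its untreated range.

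ADM (chromosome 11, 10305073 to 10307397) had 11.2 and 11.3 CPM in untreated and 16.0 and 16.5 CPM in treated WT, with no overlap. Its log2 fold change was 0.53 ± 0.19 (SE, unadjusted P of 0.0338, edgeR adjusted p of 0.638), and 0.53 ± 0.17 with clone as a block (edgeR adjusted p of 0.121). KDM3A, a histone demethylase that HIF induces, had 48.2 and 47.9 CPM before and 60.3 and 56.7 CPM after treatment, a log2 fold change of 0.28 ± 0.13 (SE, edgeR adjusted p of 0.640). VEGFA had 69.7 CPM in treated clone 2, against 69.5 untreated, and 93.7 CPM in treated clone 11, against 55.3 untreated. Its values in clone 2 thus barely differed.

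Most lower glycolysis enzymes had slightly higher values after H2O2, below the threshold of the test. GAPDH, PGK1, PGAM1, ENO1 and PKM were higher in both clones, by 0.13 to 0.39 on the log2 scale, and ENO2 was lower in both, with differences of -0.20 and -0.22. GAPDH had 2176 and 1809 CPM in untreated and 2515 and 2368 CPM in treated clones 2 and 11 (log2 fold change of 0.29 ± 0.15, SE, edgeR adjusted p of 0.661). In upper glycolysis 3 of 9 enzymes were higher and 4 lower in both clones. Over all members 17 of 37 were higher in both clones (45.9%, beside 34% of all genes) and 10 lower in both (27.0%, beside 31.4%). The sum of the 17 enzymes was 12173 ± 367 CPM in treated WT (SD, n = 2). PFKFB3 and PFKFB4, which make the phosphofructokinase activator fructose-2,6-bisphosphate, went opposite ways, with PFKFB3 at 61.9 and 65.1 CPM after 52.0 and 54.1, and PFKFB4 at 6.68 and 5.99 CPM after 9.09 and 6.87.

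The remaining hypoxia-induced members went in various directions after H2O2. BNIP3, BNIP3L, PDK1 and NDRG1 differed in sign between the clones, by -0.37 to 0.28 on the log2 scale. EGLN3 had 8.05 and 24.7 CPM in treated clones 2 and 11, against 11.3 and 21.5 untreated. CA9 had 0 counts in both treated libraries. MXI1 was lower in both treated libraries, with 19.2 and 18.2 CPM against 27.1 and 19.6 (log2 fold change of -0.33 ± 0.22, SE, edgeR adjusted p of 0.717).

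Other genes of these pathways were examined as lists beside the members. Of 24 further glycolysis genes 10 were tested, and 1 was called, SLC16A7 (MCT2, a monocarboxylate transporter), lower in OGG1 KO at -4.23 ± 1.72 on the log2 scale (SE, edgeR adjusted p of 0.999). It had 17.0 CPM in WT clone 2 but 1.02 in WT clone 11 and 0.723 and 0.222 in OGG1 KO, so most of the difference lay in 1 WT clone. SLC16A7 was also called in the interaction. Of 12 genes of pyruvate entry into mitochondria all were tested between genotypes, and PDK4 was called higher in DKO at 1.77 ± 0.53 (SE, edgeR adjusted p of 1), from 0.133 and 0.133 to 0.448 and 0.485 CPM, which is at most 11 counts per library. The pentose phosphate pathway (7 of 8 tested) and the regulators and partners of HIF (14 of 15 tested, VHL and ARNT among them) held 0 calls in all 5 comparisons, with median log2 fold changes of -0.13 to 0.10.

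Among 35 further hypoxia-induced genes 29 were tested, and 0 were called in the 4 genotype comparisons, or 1 to 2 in each with no filter on low counts. After H2O2, 2 of the 29 were called, both higher, beside 1.75% of all genes tested. They were TXNIP, the thioredoxin-binding inhibitor of glucose uptake, and HMOX1, the haem oxygenase that NRF2 also induces. TXNIP had 36.8 and 19.98 CPM in untreated and 71.0 and 58.3 CPM in treated WT clones 2 and 11, and rose, with clone as a block, by 1.23 ± 0.15 on the log2 scale (SE; adjusted p = 0.00164 in edgeR). Without the block it differed by 1.18 ± 0.30 (SE, edgeR adjusted p of 0.638). HMOX1 went from 9.58 and 8.99 to 15.4 and 36.5 CPM, and with the block rose by 1.36 ± 0.25 (SE, edgeR adjusted p of 0.0175), against 1.48 ± 0.42 without it (edgeR adjusted p of 0.638). With the block, RIOK3 also rose (0.68) and CCNG2 and RORA fell (-0.69 and -0.94), with edgeR adjusted p values of 0.0172, 0.0448 and 0.00873. In that fit 3 of the 29 were higher and 2 lower at an edgeR adjusted p of at most 0.05, beside 2.57% of all genes. The list was chosen with earlier results of these data known, so these counts are no test of a hypoxia response. The list as a whole had a median log2 fold change of 0.02 after H2O2.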

How the data were processed

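Total RNA of HAP1 clones was sequenced on the DNBseq platform. The authors checked reads with FastQC 0.11.9, aligned them to GRCh38.p13 with HISAT2 2.2.1 and counted them per gene with featureCounts of Rsubread, as far as the methods and the submitters' processing notes say. The deposited values are whole read counts per gene and library, not normalized. The strand setting and the treatment of multi-mapping reads were not given in the sources used here. The untreated WT columns occur in both tables with identical values and were used once; 0 columns were left unmatched.

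Counts were analysed in R 4.3.3 with edgeR 4.0.16: filterByExpr, trimmed mean of M values (TMM, factors 0.967 to 1.01) and the two-sided quasi-likelihood F test with legacy=TRUE. The 8 untreated libraries formed 1 fit (17881 genes, 4 residual degrees of freedom) and the 4 WT libraries another (16997 genes, 2 residual degrees of freedom, or 1 with clone as a block). Each group has 2 clones, and P values of the fits without a block measure the spread between clones. With clone as a block, P values measure the spread of the treatment difference between clones. With 1 residual degree of freedom they lean on the spread shared over genes. The library sides as a block, set from the same libraries, remove the difference between the sides and leave 3 residual degrees of freedom. Adjusted p values are Benjamini-Hochberg values over all genes tested. Standard errors (SE) were derived from F. The clone numbers pair treated with untreated WT because the clones are the same. The clone difference in treated cells correlated with that in untreated cells (Pearson r = 0.681 across 16997 genes, which are no replicates), and had the same sign in 28 of 37 members.

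The members, lists and tests were chosen with earlier results of these data known. Members without values of their own are covered by counts and medians over their role or over all members. Values per library are given for HIF1A, EPAS1, members called in any comparison or with a blocked adjusted p of at most 0.05, and the 3 members of smallest P in each comparison. CCNG2, RORA, RIOK3, ENO3, EGLN1, VEGFA after H2O2, GAPDH, MXI1, PFKFB3, PFKFB4, SLC2A1, SLC2A3 and the members that separated by library side were chosen after their values were seen. Positions and lengths are from GENCODE v44, and promoters from RefSeq. The fit was also run on simulated counts of independent libraries, with known changes in genes of higher counts. Those counts held neither the library sides nor the shared parent of the DKO clones, so they check neither. Alternatives were DESeq2 1.42.0 size factors in edgeR, its Wald test, legacy=FALSE, other count filters, the libraries of 2 groups alone, the library sides or the clone as a block, and leaving out each library.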

Additional observations from a re-analysis of the deposited data

How the results depend on the processing

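Size factors of DESeq2, its Wald test, the newer edgeR test, other filters, a fit of 4 libraries and the library sides as a block left the number of members called unchanged in each comparison they were run for. With no filter on low counts, the further hypoxia-induced genes held 1, 1, 2 and 1 calls in MUTYH KO, OGG1 KO, DKO and DKO against OGG1 KO, and the further glycolysis genes 1 call in each, against 0, 1, 0 and 0 with the filter. With the replicate block (clone), the H2O2 comparison had 0 members called and a median of 0.0497, against 0.00627 without it. In that blocked fit 1 member had a p of at most 0.05 after adjustment in edgeR, and 0 with the DESeq2 Wald test; settings of the blocked fit were added after the data were seen. With single libraries left out, 1 library stayed in a group, so only effect sizes are given. The members' median log2 fold change then ranged from -0.00818 to 0.0754 in MUTYH KO, -0.1365 to 0.0871 in OGG1 KO (lowest without clone 22), -0.0229 to 0.0883 in DKO (highest without WT clone 2), -0.0710 to 0.134 for DKO against OGG1 KO and 0.0535 to 0.139 after H2O2 (highest without WT clone 2). The log2 fold change of NDRG1 in OGG1 KO reversed to -0.0296 without clone 22, and was 1.33 without clone 1. The cause of these shifts was not tested. Depth limits EPAS1, NDRG1, ANKRD37 and CA9, which rested on at most 114 counts per library, and 2 clones per group limit every comparison.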
